A study of Arabidopsis thaliana with 42 samples.

Results

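The genes described here encode proteins that loosen and remodel the plant cell wall: expansins, xyloglucan endotransglucosylase/hydrolases (XTH) and the glycoside hydrolase family 9 endoglucanases (GH9). They were taken by name from the probe gene table of the array, as every probe set that carries a single gene whose symbol contains EXPA, EXPB, EXLA, EXLB, XTH, XTR or GH9. This gave 42 genes with 1 probe set each, out of 13513 tested probe sets with a single named gene and 22746 tested probe sets in all. They comprised 10 alpha-expansins, 4 beta-expansins, 4 expansin-like genes, 9 XTH genes and 15 GH9 genes. These are the members found by name and not the complete families. Each gene had no more than 1 matching probe set, so no choice between probe sets was needed.

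RNA came from Arabidopsis thaliana seedlings, light-grown and 10 days old, and was read on 42 one-colour Affymetrix arrays in 14 groups of 3. A set of 27 arrays held the wild type Col and 8 single mutants of the ACC synthase (ACS) family. The labels name them acs1A, acs4A, acs6E and acs9B, and, as pairs that share a gene number, acs2B with acs2C and acs5C with acs5D. A set of 15 arrays held Col again and 4 higher order mutants, named penta, hexa, hepta and miR. ACS enzymes make the precursor of the plant hormone ethylene, and the series asked how the members of this enzyme family act in combination. All groups shared the same age, medium, light and temperature. They were kept in the cold at 4 C for 2 days and grown at 25 C with 16 h of light and 8 h of dark a day. No further treatment was named. The labels give neither the alleles behind the letters in the line names nor the genes mutated in penta, hexa, hepta and miR, so these names are used as labels only. The replicates are titled as biological, with no statement of separate cultures, so the p-values reflect only how these particular samples vary. No probe set of the table used here was named for an ACS gene, and the mutated genes were therefore not checked in their lines.

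A growing plant cell is held in by cellulose fibrils that are tied together by xyloglucan and embedded in pectin. Expansins let this network slip in acid conditions without cutting it, XTH enzymes cut xyloglucan chains and rejoin them, and GH9 enzymes hydrolyse beta-1,4-glucans. The expansin-like proteins EXLA and EXLB resemble expansins in sequence, and a wall-loosening activity has not been shown for them.

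Several facts about the arrays bear on every comparison. Differences from Col rest on the same 3 Col arrays within a set, so the comparisons with Col are not independent of each other. Among the 45 probe sets for control transcripts that are added to each sample and do not come from the plant, 27 to 39 were called different between Col and a single line, against 0 between Col and each of penta, hexa and hepta (0 or 1 at an unadjusted p below 0.05) and 3 between Col and miR (16 unadjusted). Controls were also called between miR and hepta (2) and between miR and hexa (1), and their part in the miR results was not tested. For the single lines, an effect of the line and an effect of how the Col arrays were handled cannot be told apart. Direct comparisons between lines avoid the Col arrays, and 0 of the 45 controls were called between acs2B and acs2C and 0 between acs6E and acs9B in limma (4 and 0 at an unadjusted p below 0.05). Between acs5C and acs5D 7 controls were called (10 unadjusted). The line arrays themselves lay at a low or a high level of the control bioC, and each single line was also set against the mean of the other lines at its own bioC level, where limma called 0 controls for any line (5 unadjusted for acs4A and 0 for the others). The bioC probe sets that sorted the arrays are among these 45 controls, so a low count was partly fixed by the sorting. It cannot show that these comparisons are free of handling effects. Replicate 1 of acs4A stood apart from its 2 replicates. Its deviations from the group mean had an SD of 0.19, the largest of all 42 arrays. Col replicate 1 of the single set came next, at 0.15. Markers fixed for other tissues were hardly represented. RCA, the Rubisco activase of green tissue, and PYK10, a beta-glucosidase of roots, were bright on all arrays and called in no comparison, and the seed storage gene PAP85 was dim. RCA and PYK10 lay near the top of all levels, at percentiles 99.98 and 99.8 of the single set. The share of each tissue cannot be judged from such single probe sets. The root hair list held EXPA7 and EXPA18, both among the 42 genes. EXPA7 was called nowhere, and EXPA18 passed the F-test among the single lines (adjusted p = 0.0104) and among the higher order lines (adjusted p = 0.044). EXPA18 read 7.01, 7.04 and 6.93 in acs6E, above the arrays of all other single lines, and 5.52, 5.87 and 6.03 in hepta, the lowest mean of its set.

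A difference was called when the adjusted p of the limma fit lay below 0.05. Differences are log2 differences with their standard error (SE), and levels are log2 values that are comparable only within a probe set and within a set of arrays. Against Col, 14 of the 42 genes were called in acs9B, 8 higher and 6 lower, where 25.6% of all tested probe sets were called, 10.9% higher and 14.7% lower. In acs1A 12 genes were called, 5 higher and 7 lower, against 21.4% of all probe sets (8.83% higher, 12.5% lower). In acs2C 12 were called, again 5 and 7, against 26.6% (12.1% and 14.5%). These 3 lines held the most calls. The acs1A count was 7 without acs1A replicate 2, and the acs2C count 7 without Col replicate 2.

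In acs6E 10 genes were called, 4 higher and 6 lower, against 28.8% of all probe sets (13.4% and 15.5%). In acs4A 8 were called, 3 and 5, against 20.3% (9.57% and 10.7%). In acs5C 6 were called, 2 and 4, against 19.2% (8.66% and 10.5%), and in acs5D 6, 1 and 5, against 17.6% (7.35% and 10.3%). In acs2B, the line with the fewest, 4 genes were called, 3 higher and 1 lower, against 22.7% of all probe sets (10.2% and 12.5%). Leaving out 1 array gave 17 in acs6E (without Col replicate 1), 4 in acs4A (without acs4A replicate 2), 3 in acs5D (without acs5D replicate 3) and 8 in acs2B (without Col replicate 2).

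Against the other lines at the same bioC level, 11 genes were called in acs1A, where 3.58% of all probe sets were, and 11 in acs9B, where 24.5% were. There were 6 in acs6E (14.4% of all probe sets), 5 in acs2C (11%), 3 in acs5C (2.68%), 2 in acs2B (11.8%), 1 in acs4A (3.19%) and 1 in acs5D (1.03%). The acs1A count fell to 5 without acs1A replicate 1 and to 3 without acs1A replicate 2, while that of acs9B stayed between 9 and 12 on leaving out any array. The acs6E count was 13 without acs2B replicate 2 and 3 without acs6E replicate 1 or 3. The acs2C count was 8 without acs4A replicate 1, 2 without acs2C replicate 2 and 3 without acs2C replicate 3. The counts of acs5C, acs2B, acs4A and acs5D reached 0 on leaving out acs5C replicate 2, acs2B replicate 1 or 3, acs4A replicate 3 or acs2B replicate 1, and acs5D replicate 3 respectively. At most they reached 6 in acs5C (without acs4A replicate 1 or 3), 5 in acs2B (without acs4A replicate 3), 7 in acs4A (without its replicate 1) and 2 in acs5D (without acs2B replicate 2 or acs9B replicate 3).

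In terms of shares, 33.3% of the genes were called in acs9B, 28.6% in acs1A and acs2C, and 9.52% in acs2B. The median difference of the 42 genes lay between -0.04 and 0.03 in the 8 single lines, and that of all probe sets between -0.03 and -0.004, and rises and falls occurred side by side. No gene was called in the same direction in all 8 single lines, a pattern met by 2.3% of all probe sets for a rise and 2.23% for a fall. The genes nevertheless differed among the 8 single lines themselves: in a moderated F-test without Col, 24 of 42 passed, against 37.5% of all probe sets. The largest rises in the heat map of differences from Col lay in the rows EXLA1, XTH33, EXLA2, EXPA16 and XTH16. EXLA1 also held its largest fall, -1.002 in acs2B, which was not called, and EXPA16 differed there by -0.49. GH9B13 was called higher in 5 single lines and XTH21 in 4. Called falls were spread over several rows, EXLB1, GH9B8, EXPA8 and XTH32 among them.

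**Figure D1:**
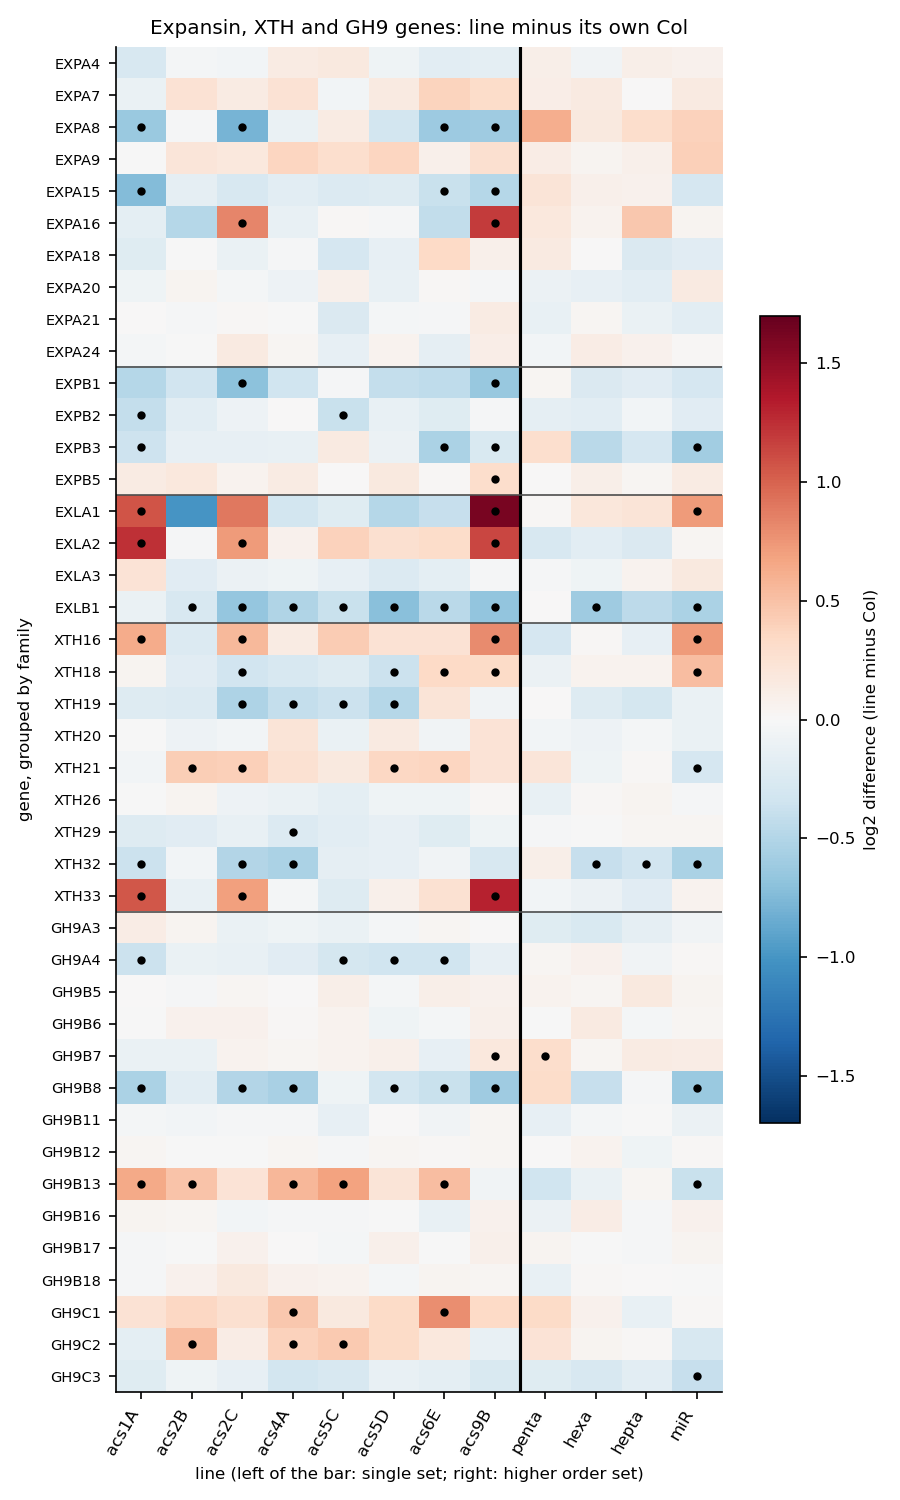
Log2 difference of each line from the Col arrays of its own set (colour; red higher, blue lower) for the 42 genes, in rows by family, with the 8 single lines left of the bar and the 4 higher order lines right of it; a dot marks an adjusted p below 0.05. The darkest red cell is EXLA1 in acs9B at 1.61, and the acs2B column holds only 4 dots.

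Of the expansin-like genes, EXLA1 spanned the widest range of the 42 genes in the single set. Its level was 10.45, 10.29 and 9.90 on the acs9B arrays, 9.65, 10.03 and 9.33 on the acs1A arrays and 9.64, 9.33 and 9.52 on the acs2C arrays. It was 7.47, 7.71 and 7.61 in acs2B, 8.06, 8.39 and 8.17 in acs6E, 8.00, 8.12 and 8.25 in acs5D, and 8.45, 7.93 and 8.79 in acs5C. The acs9B arrays were the highest of the set together with acs1A replicate 2, and the acs2B arrays the lowest together with acs4A replicates 2 and 3. Col was itself spread out, at 9.30, 7.81 and 8.70. EXLA1 rose against Col in acs9B by 1.61 (SE 0.37, adjusted p = 0.0026) and in acs1A by 1.07 (SE 0.37, adjusted p = 0.042). The acs1A call was lost without Col replicate 2 (adjusted p = 0.242), Col replicate 3 (0.071), acs1A replicate 1 (0.085) or acs1A replicate 2 (0.164). The differences of acs2B (-1.002, adjusted p = 0.054) and acs2C (0.89, adjusted p = 0.078) from Col did not pass. Against the other lines at its own bioC level, EXLA1 was higher in acs9B by 2.20 (SE 0.33, adjusted p = 6.3e-05), with every acs9B array above every one of the other arrays.

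EXLA2, its close relative, had levels of 7.73, 8.07 and 7.43 in acs1A, 7.74, 7.66 and 7.50 in acs9B and 7.23, 7.15 and 7.27 in acs2C. The Col arrays read 6.99, 6.03 and 6.47, and none of these 9 line arrays overlapped them. The rises were 1.25 in acs1A (SE 0.20, adjusted p = 0.00010), 1.14 in acs9B (SE 0.20, adjusted p = 0.00024) and 0.72 in acs2C (SE 0.20, adjusted p = 0.0095), the last of which was lost without Col replicate 2 (adjusted p = 0.088). EXLA2 was also higher than in the other lines at the same bioC level in acs9B, by 1.01 (SE 0.18), and in acs1A, by 0.93 (SE 0.16). EXLA3, which RefSeq places next to EXLA1 with no gene between them, stayed dim at 4.18 to 4.86 on the 27 arrays and was called in no line against Col.

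XTH33, an XTH that carries a membrane anchor, showed the same lines at the top. It read 7.22, 6.74 and 6.67 in acs9B, 6.71, 6.76 and 6.42 in acs1A and 6.36, 6.07 and 6.36 in acs2C, against 6.17, 5.38 and 5.17 in Col. The acs9B and acs1A arrays lay above all Col arrays, while those of acs2C, also called higher, overlapped them. XTH33 rose by 1.31 in acs9B (SE 0.21, adjusted p = 0.00010) and by 1.06 in acs1A (SE 0.21, adjusted p = 0.00094), and by 1.27 (SE 0.19) and 0.96 (SE 0.17) against the other lines at the same bioC level.

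The alpha-expansin EXPA16 was high in acs9B and acs2C and not in acs1A. Its levels were 7.22, 7.09 and 6.64 in acs9B and 6.47, 7.02 and 6.40 in acs2C, but 5.48, 5.67 and 5.74 in acs1A, where Col read 5.66, 5.73 and 6.02. EXPA16 rose by 1.18 in acs9B (SE 0.28, adjusted p = 0.0035) and by 0.83 in acs2C (SE 0.28, adjusted p = 0.032). The acs2C call was lost without Col replicate 1 (adjusted p = 0.086), Col replicate 2 (0.083) or acs2C replicate 2 (0.151). In acs1A the difference was -0.17 and did not pass.

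XTH16, a further XTH, read 9.42, 9.48 and 9.36 in acs9B and 8.49, 8.32 and 8.31 in acs2B. It rose against Col in acs9B by 0.81 (SE 0.18, adjusted p = 0.0018), and its Col arrays at 9.03, 8.30 and 8.50 lay below all 3 acs9B arrays. It was called higher in acs1A and acs2C too, where the arrays overlapped those of Col. Against the other lines at its bioC level it was higher in acs9B by 0.74 (SE 0.16) and lower in acs2B by 0.65 (SE 0.17, adjusted p = 0.015). This used the 2 acs2B replicates at the low bioC level, 1 and 3, and was lost without either (adjusted p = 0.103 and 0.191).

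**Figure D2:**
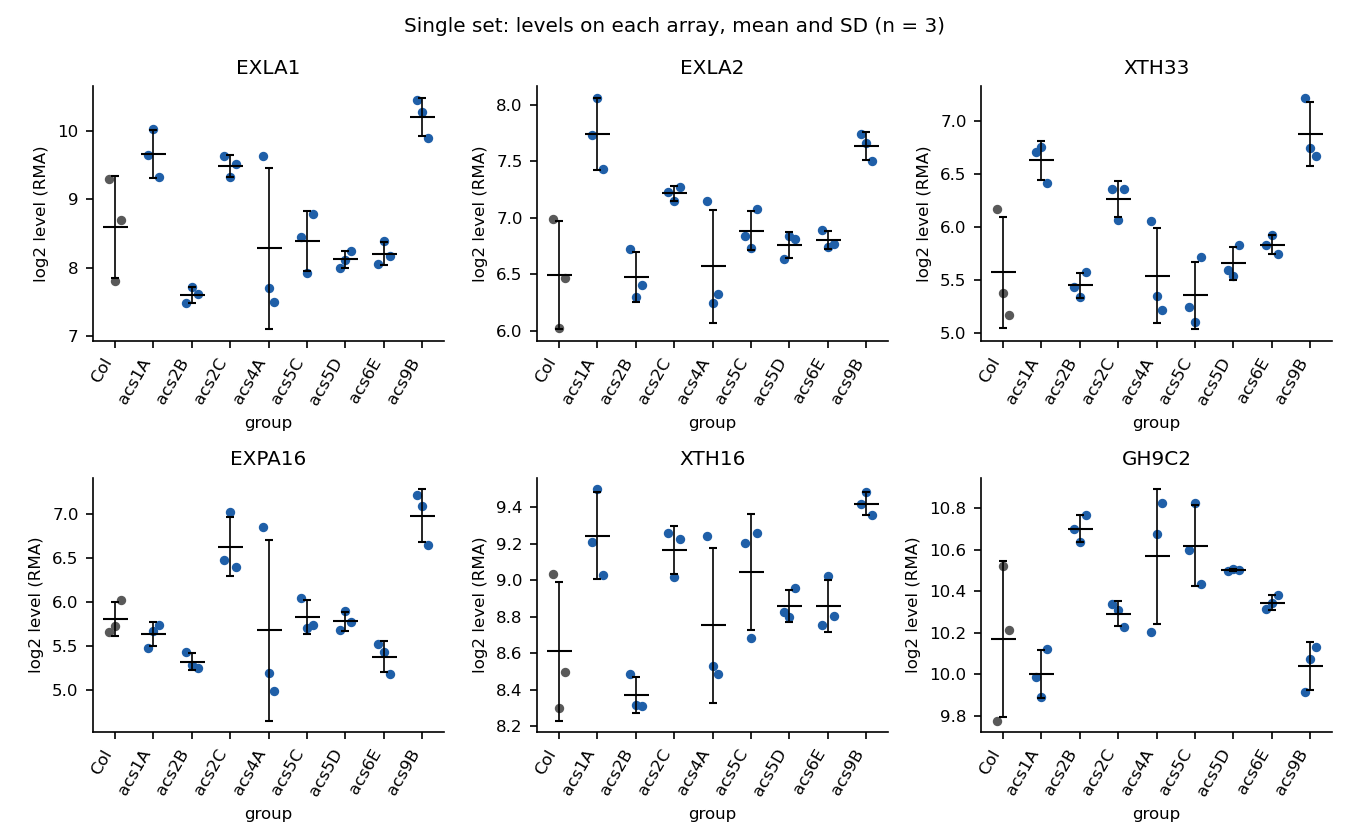
Log2 level on each array of the single set for EXLA1, EXLA2, XTH33, EXPA16, XTH16 and GH9C2, by group; points are arrays (Col grey, lines blue), the long line is the mean and the bar the SD of 3 arrays, and each panel has its own axis. The acs9B points sit high in the first 5 panels and low in the GH9C2 panel, and acs4A replicate 1 lies apart from its 2 replicates.

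The lines acs2B and acs2C are named for the same ACS gene, and acs2B had the lowest mean of the 8 single lines for EXLA1 and EXPA16. In the direct comparison 11 of the 42 genes were called, 5 higher and 6 lower in acs2B, where 21.4% of all probe sets were called, 10.4% higher and 10.9% lower. EXLA1 was lower in acs2B by 1.90 (SE 0.37, adjusted p = 0.00078), EXPA16 by 1.31 (SE 0.28, adjusted p = 0.0017), XTH33 by 0.81 (SE 0.21), XTH16 by 0.79 (SE 0.18) and EXLA2 by 0.74 (SE 0.20). For each of these 5 genes all acs2B arrays lay below all acs2C arrays. The genes higher in acs2B were EXPA8 by 0.77 (SE 0.21, adjusted p = 0.0092), XTH32 by 0.45 (SE 0.12), GH9C2 by 0.41 (SE 0.14), EXLB1 by 0.39 (SE 0.10) and GH9B8 by 0.32 (SE 0.10). GH9B7 was lower in acs2B by 0.18. The call of GH9C2 was lost on leaving out any of the 6 arrays (adjusted p between 0.057 and 0.117). That of GH9B8 was lost on leaving out acs2B replicate 2 or 3 or any acs2C array (between 0.052 and 0.101). Because acs2B replicate 2 lay at the high bioC level and the other 5 arrays at the low level, the comparison was repeated without it. It then called 8 genes, against 17.9% of all probe sets, and EXLA1 differed by -1.95 (SE 0.42) and EXPA16 by -1.30 (SE 0.32).

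The lines acs6E and acs9B, named for different ACS genes and both at the high bioC level, differed in 13 of the 42 genes, 2 higher and 11 lower in acs6E, where 29.9% of all probe sets were called, 15.6% higher and 14.3% lower. EXLA1 was lower in acs6E by 2.01 (SE 0.37, adjusted p = 0.00023), EXPA16 by 1.61 (SE 0.28, adjusted p = 0.00014), XTH33 by 1.05 (SE 0.21) and EXLA2 by 0.83 (SE 0.20). XTH16 was lower by 0.56 (SE 0.18, adjusted p = 0.020), a call lost without acs6E replicate 1 (adjusted p = 0.068), acs6E replicate 3 (0.063) or acs9B replicate 2 (0.059). GH9B13 was higher in acs6E by 0.58 (SE 0.10, adjusted p = 0.00013) and GH9C1 by 0.46 (SE 0.14), the latter lost without acs6E replicate 2 (adjusted p = 0.084) or acs9B replicate 3 (0.087). Between acs5C and acs5D, which share an ACS gene name, only GH9B13 was called, where 2.29% of all probe sets were (1.59% higher and 0.703% lower in acs5C). This pair was fully split by bioC, low in acs5C and high in acs5D, with 7 of the 45 controls called, and line and bioC level cannot be told apart here. It was higher in acs5C by 0.45 (SE 0.10, adjusted p = 0.014), and was no longer called without acs5C replicate 2 (0.065), acs5C replicate 3 (0.062) or acs5D replicate 3 (0.092).

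**Figure D3:**
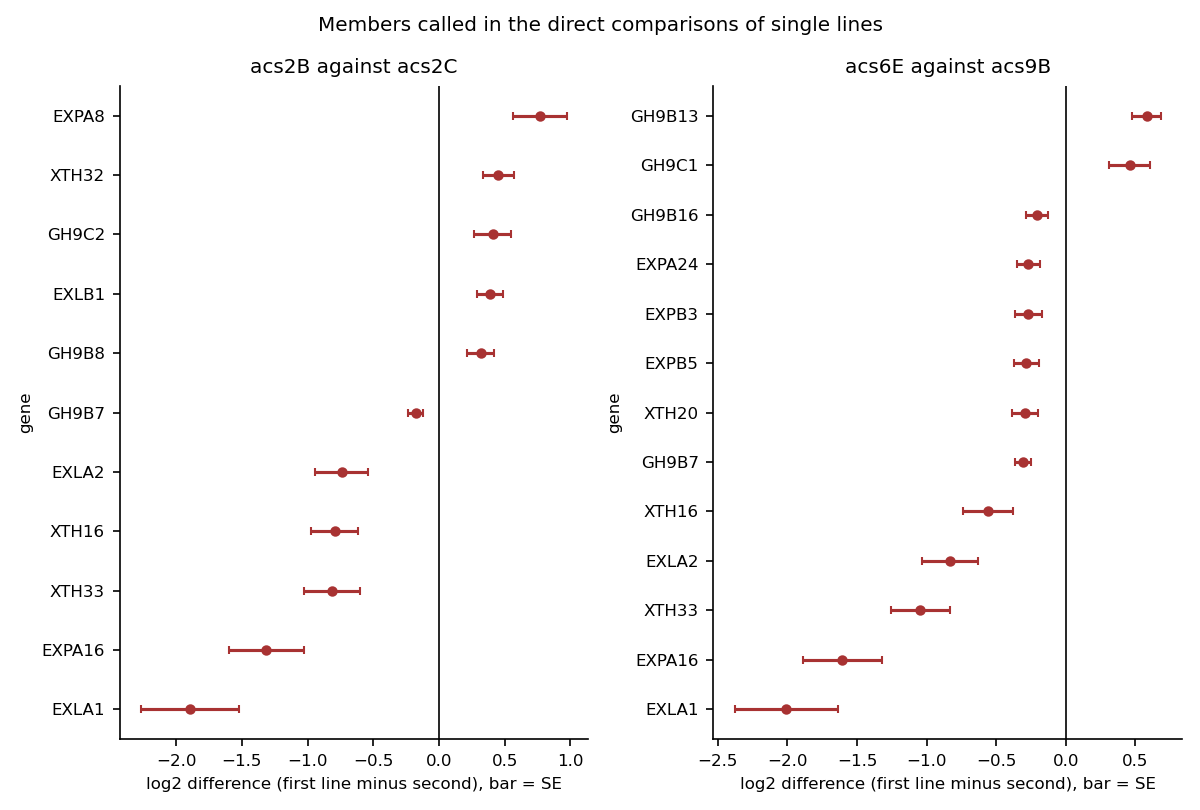
Log2 difference between lines (first minus second; bar, SE) for the genes called in the comparisons of acs2B with acs2C (left) and acs6E with acs9B (right). EXLA1, EXPA16, XTH33, EXLA2 and XTH16 lie left of 0 in both panels, with EXLA1 at -1.90 and -2.01.

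In acs4A the result for these genes depended on single arrays. Replicate 1 is described here and was singled out after its values had been seen. The counts also moved on leaving out acs4A replicate 2 or 3, as given above. EXLA1 read 9.64 on replicate 1 and 7.70 and 7.50 on the other two, and EXPA16 read 6.86 against 5.19 and 4.98. With all 3 arrays, 8 of the 42 genes were called against Col and none of EXLA1, EXLA2, XTH33, EXPA16 and XTH16 was among them. Without replicate 1, 11 genes were called, 5 higher and 6 lower, where 19.2% of all probe sets were. EXLA1 was then lower than in Col, with a difference of -0.9997 (SE 0.28, adjusted p = 0.013) and EXPA16 by 0.72 (SE 0.17, adjusted p = 0.0037). Against the other lines at the low bioC level, acs4A had 1 called gene with all arrays, where 3.19% of probe sets were called, and 7 without replicate 1, where 6.1% were. These included EXLA1 at -1.17, EXLA2 at -0.82, EXPA16 at -0.77 and XTH33 at -0.66. On replicate 1 EXPA8 was low at 9.42, where the other two read 10.48 and 10.58, and EXPB1 was low at 6.94 against 7.86 and 8.14. Col replicate 1, part of the reference here, deviated from its group mean in the same direction as acs4A replicate 1 for several genes. These were EXLA1 (0.70), EXLA2 (0.49), XTH33 (0.59), XTH16 (0.42) and GH9C2 (-0.39), but not EXPA16 (-0.15).

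The level of EXLA1 ran with that of several other genes from array to array, also within groups. EXLA1 was taken as the reference after its values had been seen, and the following correlations are descriptions over arrays that share their groups and normalization. Over the 8 single line means, r with EXLA1 was 0.95 for EXLA2, 0.94 for XTH33, 0.92 for XTH16 and 0.798 for EXPA16, and -0.90 for GH9C2. An r of at least 0.8 was met by 3 of the other 41 genes (EXLA2, XTH33 and XTH16) and by 4.41% of all probe sets, and an r of -0.8 or lower by 4.46%. After the group means were removed, r over the 27 single arrays was 0.90 for XTH16, 0.87 for EXLA2 and 0.796 for XTH33, -0.92 for GH9C2 and -0.91 for EXPA8. Within groups, an r of at least 0.8 was met by 2 of the other 41 genes and by 1.25% of all probe sets. An r of -0.8 or lower was met by 3 of the 41, EXPB1 at -0.87 being the third, and by 0.805% of all probe sets. Without the acs4A arrays, over 24 arrays, XTH16 stood at 0.87 and GH9C2 at -0.91, whereas EXPA16 dropped from 0.67 to 0.05. In the 15 arrays of the higher order set the within-group r was 0.86 for XTH33, 0.49 for XTH16, 0.53 for EXLA2, 0.05 for EXPA16 and -0.81 for GH9C2. There an r of at least 0.8 was met by 1 of the 41 genes and 0.176% of all probe sets. An r of -0.8 or lower was met by 1 of the 41 and by 0.18%.

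**Figure D4:**
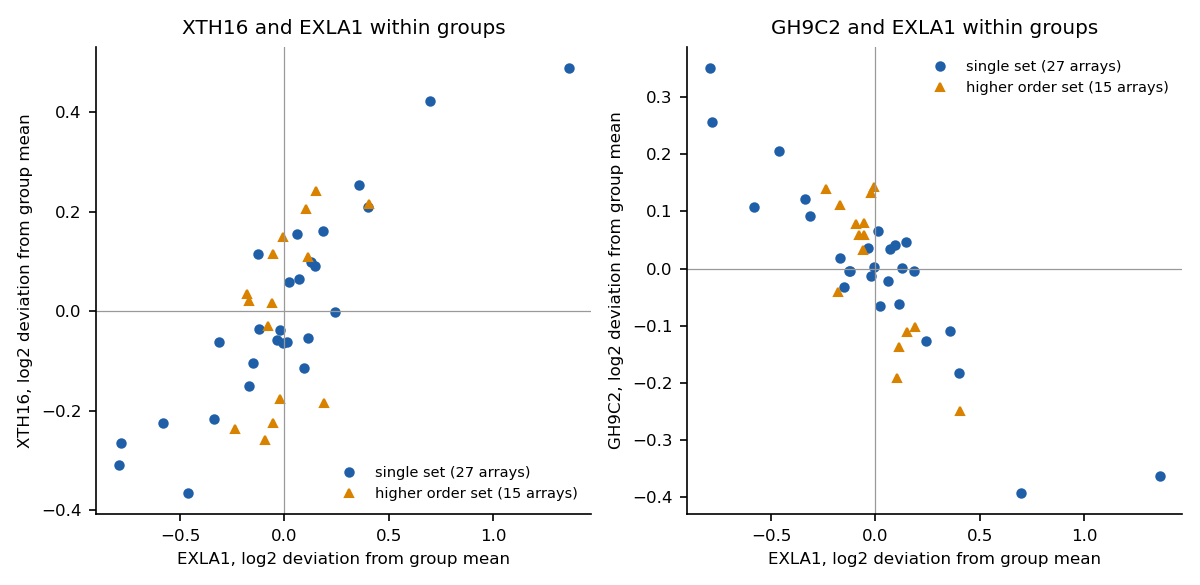
Deviation of each array from its group mean (log2) for EXLA1 on the horizontal axis and XTH16 (left) or GH9C2 (right) on the vertical axis, for the 27 single set arrays (circles) and the 15 higher order set arrays (triangles). The circles follow a rising band for XTH16 (r of 0.90) and a falling band for GH9C2 (r of -0.92), and the rightmost point is acs4A replicate 1.

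GH9C2 belongs to the GH9 class with a carbohydrate-binding module. Its arrays read 10.70, 10.64 and 10.77 in acs2B, 9.99, 9.89 and 10.12 in acs1A, 9.91, 10.07 and 10.13 in acs9B and 9.78, 10.52 and 10.21 in Col. The acs2B arrays lay above all Col arrays, and the means of acs1A and acs9B were the lowest among the lines. GH9C2 rose against Col in acs2B by 0.53 (SE 0.14, adjusted p = 0.0075), a call lost without Col replicate 1 (adjusted p = 0.073). Among lines at a shared bioC level, GH9C2 was lower than the rest in acs1A by 0.55 (SE 0.11) and in acs9B by 0.46 (SE 0.13), lost without acs1A replicate 2 (adjusted p = 0.091) and acs9B replicate 1 (0.064) respectively. GH9C1, of the same class, was higher in acs6E than in Col by 0.79 (SE 0.14, adjusted p = 0.00022), at 6.74, 6.89 and 6.63 against 6.10, 5.75 and 6.04, without overlap.

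Of the alpha-expansins, EXPA15 and EXPA8 fell in several lines. EXPA15 read 9.33, 8.93 and 9.33 in acs1A, 9.35, 9.48 and 9.52 in acs9B and 9.60, 9.53 and 9.54 in acs6E, all below the Col arrays at 9.84, 10.04 and 9.93. It fell by 0.74 in acs1A (SE 0.10, adjusted p = 1.8e-05), by 0.49 in acs9B (SE 0.10) and by 0.38 in acs6E (SE 0.10). It was also lower in acs1A than in the other lines at the low bioC level, by 0.54 (SE 0.08, adjusted p = 0.00061). EXPA8 read 9.79, 10.68 and 10.36 in Col and between 9.35 and 9.79 on the 12 arrays of acs1A, acs2C, acs6E and acs9B. It fell in acs2C by 0.79 (SE 0.21, adjusted p = 0.0064), in acs1A by 0.63, in acs6E by 0.62 and in acs9B by 0.61 (each SE 0.21, adjusted p between 0.028 and 0.033). All 4 calls were lost without Col replicate 2 (adjusted p = 0.056 in acs2C and 0.169 to 0.191 in the others). Those of acs1A, acs6E and acs9B were also lost without Col replicate 3 (0.076 to 0.091) and on leaving out either acs6E replicate 1 or 2, acs9B replicate 2 or 3, or any acs1A array (0.062 to 0.107).

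Among the beta-expansins EXPB1 read 7.35, 7.41 and 7.11 in acs2C and 7.48, 7.22 and 7.35 in acs9B against 7.72, 8.19 and 8.06 in Col. The falls were 0.70 in acs2C (SE 0.18, adjusted p = 0.0056) and 0.64 in acs9B (SE 0.18, adjusted p = 0.011), the acs9B call being lost without Col replicate 2 (adjusted p = 0.057). EXPB3 was lowest in acs6E, at 10.20, 10.08 and 10.06 against 10.39, 10.92 and 10.63 in Col. It fell there by 0.53 (SE 0.10, adjusted p = 0.00022) and was also lower than in the other lines at the high bioC level, by 0.37 (SE 0.09, adjusted p = 0.0053). EXPB2 fell in acs1A by 0.41 (SE 0.10) and in acs5C by 0.38 (SE 0.10), and both calls were lost without Col replicate 2 (adjusted p = 0.053 and 0.077).

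EXLB1 was the gene called lower in most lines. It read 8.58, 8.61 and 8.72 in Col, and the 3 arrays of every single line except acs1A all lay below that. The falls ran from 0.27 in acs2B (SE 0.10, adjusted p = 0.042) to 0.71 in acs5D (SE 0.10, adjusted p = 1.6e-05). In acs1A, at 8.52, 8.66 and 8.41, it was not called. The acs2B call was lost without Col replicate 1 (adjusted p = 0.052), Col replicate 2 (0.064), Col replicate 3 (0.134), acs2B replicate 1 (0.113) or acs2B replicate 2 (0.152), and that of acs5C without acs5C replicate 1 (0.065). Among the lines EXLB1 was lowest in acs5D, with a mean of 7.92, and highest in acs1A, with a mean of 8.53 (F-test adjusted p = 0.00016).

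Among the XTH genes, XTH18 and XTH19 lie side by side in the RefSeq gene order and are known as root genes. XTH18 read 7.65, 7.86 and 7.82 in acs6E and 7.89, 7.77 and 7.64 in acs9B, above Col at 7.53, 7.19 and 7.59. It read 7.11, 7.06 and 7.02 in acs5D, below all Col arrays. XTH18 had the smallest p of the 42 genes in the F-test among the single lines (adjusted p = 7.96e-06), and it was the only gene of the 42 called in both directions against Col in that set. It rose in acs6E by 0.34 (SE 0.10, adjusted p = 0.015), lost without Col replicate 2 (adjusted p = 0.122), acs6E replicate 2 (0.069) or acs6E replicate 3 (0.054). It fell in acs5D by 0.37 (SE 0.10, adjusted p = 0.014), lost without Col replicate 1 (0.055), Col replicate 3 (0.080) or acs5D replicate 3 (0.053). Among lines at the high bioC level XTH18 was lower than the rest in acs5D by 0.52 (SE 0.09, adjusted p = 0.0059), lost without acs5D replicate 3 (0.054). XTH19 was highest in acs6E, at 8.64, 8.59 and 8.82, and exceeded the other lines at that bioC level by 0.48 (SE 0.11, adjusted p = 0.0054), lost without acs6E replicate 3 (0.052). Its Col arrays, at 8.50, 8.03 and 8.85, overlapped those of every single line, although acs2C, acs4A, acs5C and acs5D were called lower.

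XTH32 read 10.46, 10.79 and 10.94 in Col, 10.26, 10.25 and 10.17 in acs2C and 9.96, 10.28 and 10.35 in acs4A. It fell in acs2C by 0.50 (SE 0.12, adjusted p = 0.0028) and in acs4A by 0.53 (SE 0.12, adjusted p = 0.0022), without overlap. XTH21 was dim, at 4.65, 4.25 and 4.70 in Col and 5.01, 4.94 and 4.91 in acs2B. It was called higher in acs2B by 0.42 (SE 0.09), in acs2C by 0.41 (SE 0.09), in acs6E by 0.36 (SE 0.09) and in acs5D by 0.35 (SE 0.09). Without Col replicate 2, the lowest Col array, these fell to 0.28 in acs2B, 0.26 in acs2C and 0.22 in acs6E, and the acs5D call was lost (adjusted p = 0.0999). The acs5D call was also lost without acs5D replicate 3 (0.057). XTH20 was dim as well and was called in no line against Col.

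The GH9 class B enzymes are secreted endoglucanases. GH9B13 read 8.39, 8.42 and 8.72 in Col, 9.14, 9.20 and 9.23 in acs5C, 9.09, 9.001 and 9.37 in acs1A, and 8.45, 8.50 and 8.42 in acs9B. It rose in acs5C by 0.68 (SE 0.10, adjusted p = 5.1e-05), in acs1A by 0.64, in acs4A by 0.57, in acs6E by 0.52 and in acs2B by 0.48 (each SE 0.10), with all arrays of these 5 lines above all Col arrays. In acs9B it differed from Col by -0.06 and was not called, and against the other lines at the high bioC level it was lower by 0.48 (SE 0.09, adjusted p = 0.00048). GH9B8 read 8.45, 8.90 and 8.68 in Col, 8.13, 8.02 and 8.06 in acs9B and 8.18, 8.17 and 8.19 in acs2C. It was called lower in 6 single lines, by 0.31 in acs5D (SE 0.10, adjusted p = 0.034) to 0.60 in acs9B (SE 0.10, adjusted p = 0.00013). The acs5D call was lost on leaving out Col replicate 2 (adjusted p = 0.202), Col replicate 3 (0.073) or any acs5D array (0.065 to 0.104), and that of acs6E without Col replicate 2 (0.056).

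GH9B7 moved little, and its levels lay between 9.95 and 10.35 on the 27 single set arrays. The acs9B arrays read 10.35, 10.31 and 10.28 and the acs6E arrays 9.96, 10.02 and 10.04, without overlap. The means of these lines, 10.31 and 10.01, were the highest and the lowest among the lines (F-test adjusted p = 0.00046). Of the membrane-anchored class A, to which the cellulose-associated KORRIGAN enzyme belongs, GH9A4 was dim and called lower in acs1A by 0.37 (SE 0.09, adjusted p = 0.0048), in acs5D and acs6E by 0.34 (each SE 0.09) and in acs5C by 0.30 (SE 0.09). The acs5C call was lost without Col replicate 1 (adjusted p = 0.055) or acs5C replicate 2 (0.069). GH9A3 was called in no comparison.

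In the higher order set fewer of the genes were called. Against Col there was 1 gene in penta, higher, where 3.2% of all probe sets were called (2.08% higher, 1.13% lower). There were 2 in hexa, both lower, where 8.05% were (4.44% and 3.61%), and 1 in hepta, lower, where 12% were (6.96% and 5.08%). In miR 10 genes were called, 3 higher and 7 lower, where 20.9% of all probe sets were (12.3% and 8.61%). The miR count was 6 without Col replicate 1 or miR replicate 3. The hexa count was 1 without Col replicate 1, Col replicate 2 or hexa replicate 2 and 4 without Col replicate 3. That of hepta was 0 without Col replicate 1 or hepta replicate 1, 3 without Col replicate 2 or 3 and 2 without hepta replicate 2 or 3. That of penta was 3 without Col replicate 2 and 0 without any other array. No gene was called in the same direction in all 4 lines, which 0.809% of all probe sets did upward and 0.404% downward. Among the 4 lines 13 of 42 genes passed the F-test, against 18.6% of all probe sets.

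XTH16 had the smallest p of the 42 genes in that F-test (adjusted p = 0.00023). It read 8.98, 8.65 and 8.87 in miR, above every other array of the set, against 8.13, 7.87 and 8.32 in Col, 8.07, 7.74 and 8.08 in hepta and 8.10, 8.33 and 7.95 in hexa. It was higher in miR than in Col by 0.73 (SE 0.14, adjusted p = 0.0012), than in hepta by 0.87 (SE 0.14, adjusted p = 0.00054) and than in hexa by 0.70 (SE 0.14, adjusted p = 0.0045). EXLA1 read 7.79, 7.99 and 7.62 in miR, also above all other arrays of the set, against 6.90, 6.84 and 7.48 in Col. It was higher in miR than in Col by 0.72 (SE 0.14, adjusted p = 0.00088), than in hexa by 0.54 and than in hepta by 0.50 (each SE 0.14). The call against hexa was lost without hexa replicate 1 (adjusted p = 0.087), hexa replicate 3 (0.059) or miR replicate 2 (0.102). That against hepta was lost without hepta replicate 2 (0.083), hepta replicate 3 (0.073), miR replicate 1 (0.059) or miR replicate 2 (0.108). EXLA2, XTH33 and EXPA16 were not called in miR, where their differences from Col were 0.04, 0.06 and 0.04.

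GH9B8 and XTH32 were lowest in miR. GH9B8 read 7.32, 7.35 and 7.10 there, 7.92, 8.13 and 7.63 in Col and 8.42, 8.18 and 8.00 in penta. It fell against Col by 0.64 (SE 0.14, adjusted p = 0.0025) and was lower in miR than in hepta by 0.62 (SE 0.14, adjusted p = 0.0060). XTH32 read 9.59, 9.72 and 9.94 in miR, 9.81, 9.89 and 10.00 in hexa and 9.90, 9.96 and 10.04 in hepta, all below Col at 10.26, 10.40 and 10.20. It fell in miR by 0.54 (SE 0.09, adjusted p = 0.00027), in hexa by 0.39 (SE 0.09, adjusted p = 0.0092) and in hepta by 0.32 (SE 0.09, adjusted p = 0.022). The hexa call was lost without Col replicate 2 (adjusted p = 0.053). The hepta call was lost without Col replicate 1 (0.052), Col replicate 2 (0.101), hepta replicate 1 (0.094) or hepta replicate 2 (0.060).

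EXLB1 and EXPB3 fell as well. EXLB1 read 7.95, 8.01 and 7.49 in Col, 7.33, 7.28 and 7.22 in miR and 7.26, 6.93 and 7.43 in hexa, with no overlap. The falls were 0.61 in hexa (SE 0.15, adjusted p = 0.018) and 0.54 in miR (SE 0.15, adjusted p = 0.017). Both were lost without Col replicate 1 (adjusted p = 0.087 and 0.076) or Col replicate 2 (0.087 and 0.082), and the hexa call also without hexa replicate 2 (0.107). EXPB3 read 9.59, 9.44 and 9.03 in miR against 10.16, 9.99 and 9.68 in Col. It fell by 0.59 (SE 0.16, adjusted p = 0.013), lost without Col replicate 1 (0.075) or miR replicate 3 (0.074). GH9B13 fell in miR by 0.38 (SE 0.12, adjusted p = 0.028), lost without Col replicate 1 (0.106), Col replicate 3 (0.069) or miR replicate 3 (0.148), whereas it had risen in 5 single lines. It was 1 of 3 genes called in opposite directions in the sets. XTH21 was called lower in miR by 0.29 and higher in 4 single lines. XTH18 was called higher in miR by 0.52 and in both directions among the single lines.

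Penta stood at the upper end for the same genes. Between hexa and penta 5 genes were called, all lower in hexa, where 7.31% of all probe sets were called (3.4% higher, 3.91% lower). The count was 2 without penta replicate 1 and 3 without hexa replicate 1. They were EXPB3 by 0.73 (SE 0.16, adjusted p = 0.0086), GH9B8 by 0.70 (SE 0.14, adjusted p = 0.0032), EXLB1 by 0.61 (SE 0.15, adjusted p = 0.020), XTH32 by 0.48 (SE 0.09, adjusted p = 0.0020) and GH9B7 by 0.27 (SE 0.07, adjusted p = 0.022). EXPB3 was no longer called without penta replicate 1 (adjusted p = 0.057). EXLB1 was not called without penta replicate 1 (0.106), penta replicate 2 (0.064), hexa replicate 1 (0.052) or hexa replicate 2 (0.103), and GH9B7 without penta replicate 1 (0.089), penta replicate 3 (0.060) or hexa replicate 1 (0.093). GH9B7 was the 1 gene called in penta against Col. It was higher by 0.29 (SE 0.07, adjusted p = 0.023), at 9.89, 9.80 and 9.87 against 9.48, 9.70 and 9.50, and the call was lost on leaving out Col replicate 1 or 3 or any penta array (adjusted p between 0.057 and 0.135). It was also lost in a fit on the Col and penta arrays alone (adjusted p = 0.080), where 1 gene was called again but not GH9B7.

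The remaining comparisons of this set called few genes. Between hepta and penta 2 genes were called, both lower in hepta, where 3.58% of all probe sets were (1.66% higher, 1.92% lower), and 1 without hepta replicate 1, penta replicate 1 or penta replicate 2. XTH32 was lower in hepta by 0.42 (SE 0.09, adjusted p = 0.0088), lost without hepta replicate 1 (0.052). GH9C1 was lower by 0.45 (SE 0.12, adjusted p = 0.038), lost on leaving out hepta replicate 1 or any penta array (0.058 to 0.193). Between hepta and hexa limma called 0 genes, where 3.95% of all probe sets were called (2.42% higher, 1.53% lower), and 3 had an unadjusted p below 0.05. Between miR and hepta 6 genes were called, 4 higher and 2 lower in miR, where 9.59% of probe sets were (5.31% and 4.29%). Between miR and hexa 5 were called, all higher in miR, where 7.83% were (4.72% and 3.12%). The first count was 3 without hepta replicate 3. The other fell to between 1 and 3 without any hexa array or miR replicate 2 or 3. Besides XTH16 and EXLA1, XTH18 was higher in miR than in hepta by 0.45 and than in hexa by 0.46 (each SE 0.14). EXPA20 was higher by 0.32 and 0.29 (each SE 0.09). Each of these 4 calls had an adjusted p between 0.023 and 0.048 and was lost on leaving out any of 4 or 5 single arrays of its comparison, miR replicate 2 among them each time (highest adjusted p 0.178).

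**Figure D5:**
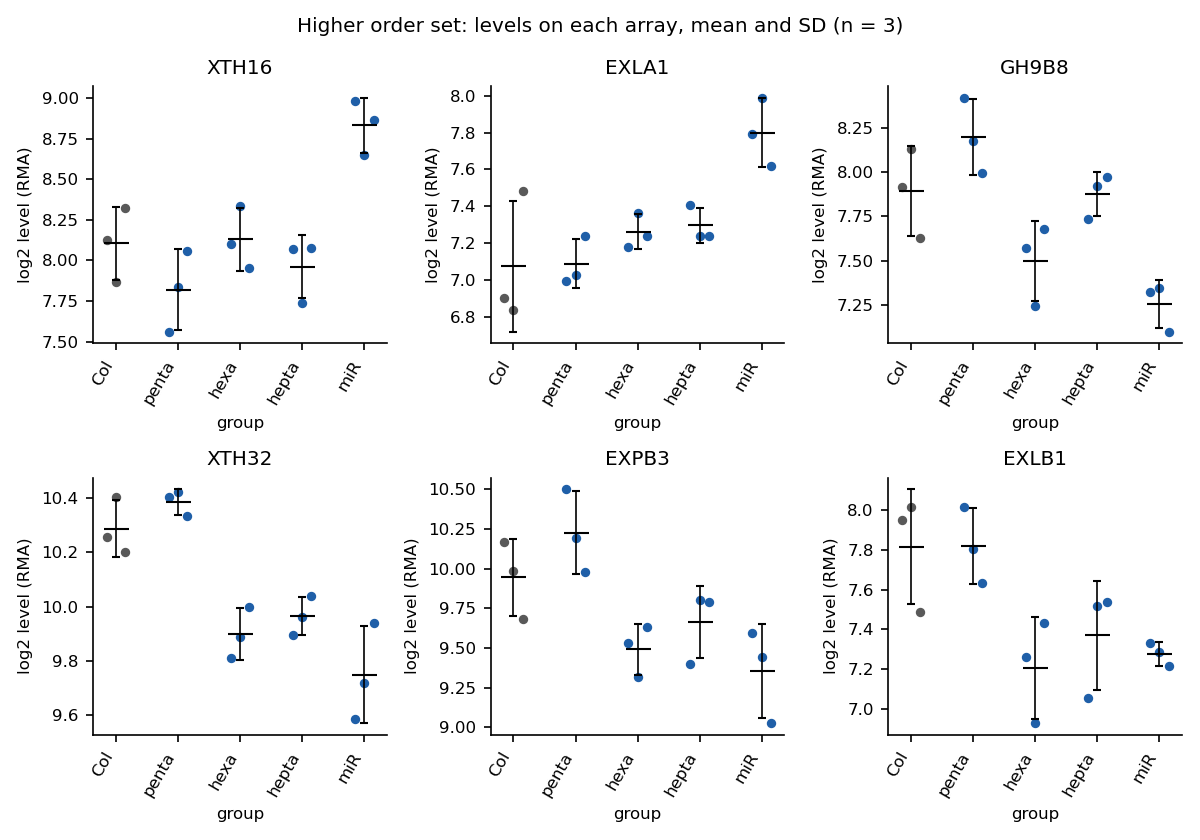
Log2 level on each array of the higher order set for XTH16, EXLA1, GH9B8, XTH32, EXPB3 and EXLB1, by group; points are arrays (Col grey, lines blue), the long line is the mean and the bar the SD of 3 arrays, and each panel has its own axis. The miR points lie above all others for XTH16 and EXLA1 and at the bottom for GH9B8, while the penta points lie near or above Col in the last 4 panels.

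Of the 42 genes, 10 were called in no comparison and passed neither F-test. These were EXPA7, which is known from root hairs, EXPA9, XTH26, GH9A3, GH9B5, GH9B6, GH9B11, GH9B12, GH9B17 and GH9B18. All but EXPA9 had a mean level below the median of all probe sets in the single set, where RMA compresses differences and a low value is no evidence of a transcript. In that set, 25 of the 42 genes lay below the median, and 8 of these were called in at least 1 single line against Col, compared with 15 of the 17 above it. The same counts were not made for all probe sets, so this contrast cannot be read as particular to these genes. EXPA9 read 7.49, 7.55 and 7.95 in Col, and the means of the single lines differed from their mean by no more than 0.36. EXPA4, EXPA18, EXPA21, EXPA24, EXPB5, XTH29, GH9B16 and GH9C3 are named here to complete the account, after their values were seen. Of these, EXPA4, EXPA18, EXPA21 and EXPA24 were called in no line against Col (EXPA18 passed both F-tests), EXPB5 and XTH29 in 1 single line each, GH9C3 in miR alone, and GH9B16 only between acs6E and acs9B. GH9B11 lies next to GH9B12, and GH9B16, GH9B17 and GH9B18 lie next to each other in the RefSeq gene order.

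Other genes of wall synthesis were measured through few named probe sets, apart from a longer list of xylan and acetylation genes that is not described here. The genes named below are some members of the lists, and counts of calls over whole lists are not given. They fall outside the naming rule and were picked with their values seen. Their dependence on single arrays is not given. Of the xyloglucan synthesis list, 4 genes had a probe set, all of the CSLC family, and CSLC6 and CSLC12 among them are not described. CSLC04, a synthase of the xyloglucan backbone, was higher than Col in acs9B by 0.64 (SE 0.13, adjusted p = 0.00079) and in acs2C by 0.35 (SE 0.13), and lower in acs2B by 0.50 (SE 0.13) and in acs6E by 0.45 (SE 0.13). Directly, it was lower in acs2B than in acs2C by 0.85 (SE 0.13, adjusted p = 6.5e-05) and lower in acs6E than in acs9B by 1.09 (SE 0.13, adjusted p = 1.2e-06). CSLC5 was higher than Col in 7 of the 8 single lines, by 0.26 to 0.38. These differences all rest on the same Col arrays, and line and Col handling cannot be told apart. COB, which orients cellulose fibrils, was lower in acs6E than in acs9B by 0.41 (SE 0.07) and lower in acs2B than in acs2C by 0.24 (SE 0.07). EXGT-A3, a further XTH gene under another name, was lower than Col in acs4A by 0.46 and in acs2B by 0.42 (each SE 0.12), and higher in miR by 0.40 (SE 0.09).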

How the data were processed

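Per the submitters' processing notes and labels, the authors deposited log2 expression values made with RMA. Neither the RMA version nor the grouping of arrays for RMA was found: not given in the sources used here. The array medians were 6.77 to 6.83 in the single set and 6.24 to 6.31 in the higher order set, so all tests stayed within a set. The 64 control probe sets were left out, which left 22746, with no filter on dim values. Gene names came from the platform's annotation, which can be old, and RefSeq TAIR10.1 was used for names and neighbours only.

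Groups were compared by lmFit and eBayes of limma 3.58.1 (R 4.3.3, two-sided tests), all groups of a set sharing 1 estimate of the spread. P-values were adjusted by the Benjamini-Hochberg method over all 22746 probe sets within each comparison, and an adjusted p below 0.05 was called. The other lines at the same bioC level were the arrays of other single lines on the same side of the gap in bioC. Their line means were averaged with equal weight, and acs2B was split by level. At the high level acs2B replicate 2 alone therefore carried the weight of a full line in the reference of acs5D, acs6E and acs9B. The fit was tested on simulated data.

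Genes named with a comparison were, of those called whose arrays did not overlap, the 5 with the largest rise and the 5 with the largest fall, the 8 with the smallest p in each F-test, and any called nowhere. Others are marked as chosen after their values were seen. The members and lists were chosen with earlier results of these data known. Replicate numbers were checked for pairing. In 0 of 46 pairs of groups did every same-numbered pair of samples correlate above 0.1. This cut cannot exclude a pairing, and the main fits treat the samples as unpaired. The alternatives were a replicate block, intensity-dependent and robust variances, repeated quantile normalization, a filter on dim probe sets, fits on the compared arrays alone, a bioC block and leaving out each array. Precision is limited by having 3 arrays in a group.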

Additional observations from a re-analysis of the deposited data

Results flagged for a closer look

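Each result here is a gene whose mean lay on opposite sides of Col in the 2 lines compared, with no overlap between the arrays of the lines, the direct test between them called and at least 1 of the lines called against Col. In none of them were both lines called against Col, so a difference on the other side of Col did not pass its own test. EXLA1 between acs2B and acs2C lay on opposite sides as well, at -1.90, and is not in the list because neither line was called against Col. Values are log2 differences, first line minus second. Between acs2B and acs2C these were EXPA16 at -1.31, XTH33 at -0.81, XTH16 at -0.79 and EXLA2 at -0.74. Between acs6E and acs9B they were EXLA1 at -2.01, EXPA16 at -1.61, GH9B7 at -0.31 and GH9B13 at 0.58. In the higher order set they were EXLB1 at -0.61 and XTH32 at -0.48 between hexa and penta, XTH32 at -0.42 between hepta and penta, and XTH16 at 0.87 between miR and hepta. The bioC levels matched between acs6E and acs9B and differed for 1 array between acs2B and acs2C.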

How the results depend on the processing

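No named difference changed sign under any alternative run, and the cause of the changes in count below was not tested. Values here and in the next paragraph are numbers of the 42 genes called. Shares of all probe sets under these settings are not given. A change in count therefore cannot be told apart from a change over the whole array. Fits on the compared arrays alone gave, against Col, 7 in acs1A, 2 in acs2B, 1 in acs4A, 2 in acs5C, 2 in acs5D, 9 in acs9B and 6 in miR. They gave 4 between acs5C and acs5D, 1 between hepta and penta, 3 between miR and hepta and 2 between miR and hexa. Repeated quantile normalization gave 3 in hepta against Col, 3 between miR and hexa, and 2 in acs5D against the other lines. Intensity-dependent and robust variances gave 3 in hepta and 2 in acs5D against the other lines. Without dim probe sets, which kept 21 of the genes, there were 2 in hepta, 7 between acs6E and acs9B, and, against the other lines, 4 in acs2B, 0 in acs4A and 2 in acs5D. This filter left out the dimmest 40% of probe sets. EXPA16 and XTH33 were among them, at percentiles 39.3 and 39.4 of the single set. All 7 genes between acs6E and acs9B were also called in the main fit. With the replicate block there were 2 in hepta against Col and, against the other lines, 4 in acs2B and 2 in acs5D. Of the called differences of named genes, fits on the compared arrays alone kept 74 and ended 25, with adjusted p between 0.052 and 0.135. Those ended included EXLA1, EXPA8 and EXPB2 in acs1A, GH9B8, GH9B13 and XTH32 in acs4A, and GH9B7 in penta. Repeated quantile normalization kept 115 and ended 8, and intensity-dependent and robust variances kept 116 and ended 7, EXLA1 in acs1A (0.082), EXPA16 in acs2C (0.062) and EXPA8 in acs1A, acs6E and acs9B (0.054 to 0.062) among them. The replicate block kept 121 and ended 2, EXLB1 in acs2B against Col (adjusted p = 0.052) and GH9C1 in acs6E against the other lines (0.054). Every sample correlated best with its own number in 6 of the 46 pairs of groups. This is at most a hint from the data and not from the design, and its rate under chance was not worked out.

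On leaving out 1 array, the counts against Col ranged from 7 to 16 in acs1A, 3 to 8 in acs2B, 7 to 13 in acs2C, 4 to 11 in acs4A, 4 to 9 in acs5C, 3 to 6 in acs5D, 8 to 17 in acs6E and 11 to 17 in acs9B. They ranged from 0 to 3 in penta, 1 to 4 in hexa, 0 to 3 in hepta and 6 to 10 in miR. The extremes came without acs1A replicate 2 (7), Col replicate 2 (8 in acs2B, 7 in acs2C), acs4A replicate 2 (4), acs5D replicate 3 (3) and Col replicate 1 (17 in acs6E, 6 in miR). Between lines the ranges were 8 to 10 for acs2B and acs2C, 0 to 2 for acs5C and acs5D, 9 to 11 for acs6E and acs9B, 2 to 5 for hexa and penta, 0 to 0 for hepta and hexa, 1 to 3 for hepta and penta, 3 to 5 for miR and hepta and 1 to 4 for miR and hexa. Against the other lines they were 3 to 13 in acs1A, 0 to 5 in acs2B, 2 to 8 in acs2C, 0 to 7 in acs4A, 0 to 6 in acs5C, 0 to 2 in acs5D, 3 to 13 in acs6E and 9 to 12 in acs9B. The F-tests ranged from 22 to 26 in the single set and 7 to 12 in the higher order set. Over all named differences, leaving out an array kept the call 706 times and ended it 176 times. The comparison of acs2B with acs2C on low bioC arrays was added after seeing the data.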

Other observations

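Probe sets that the table assigns to several genes were left out of the 42. There were 4 of them in these families, read by EXPA22, EXPA23 and EXPA25, and by GH9B9, GH9B10, GH9B14 and GH9B15, each probe set together with another family member. None was called against Col in any of the 12 lines.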
